A study of Mus musculus with 18 samples.

Results

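The earliest difference between high-KLF4 and low-KLF4 reprogramming was measured on 4 of the 18 arrays of the study. Mouse embryonic fibroblasts (MEFs) with a Nanog-GFP reporter and with ROSA-rtTA, the transactivator that doxycycline switches on, received a piggyBac transposon with either the OKMS or the OK+9MS cassette. Both cassettes carry Oct4, Klf4, c-Myc and Sox2 as 1 transcript with mCherry, under a promoter that answers to doxycycline. OKMS holds the short Klf4 cDNA and gives little KLF4 protein (low-KLF4), and OK+9MS holds the long Klf4 cDNA and gives more (high-KLF4). Doxycycline was given at 1 µg/mL, and mCherry+ cells were sorted on day 2 and day 4. Each cassette had 1 array on each day, so the comparison is 2 high-KLF4 arrays against 2 low-KLF4 arrays paired by day. Both cassettes were introduced into a pool of fibroblasts by transposition, all 4 samples carry the other factors, and no untransfected MEF array was analysed here. Day 8 (4 arrays), day 18 (2 arrays), embryonic stem cells (mESC, 2 arrays) and primary keratinocytes (2 arrays) gave values of the same genes outside the main comparison. The other 4 arrays were induced pluripotent stem cell (iPSC) clones, 2 per cassette. All 18 arrays also entered a second fit, in which the groups with 2 arrays set the spread.

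KLF4 is a zinc finger transcription factor of the Krüppel-like family that binds GC-rich and CACCC-type sites. It is best known in skin and gut, where it acts in the late differentiation of epithelial cells and in forming the epidermal barrier. In reprogramming, fibroblasts lose mesenchymal features and gain epithelial ones, a mesenchymal-to-epithelial transition, before genes of the pluripotency network come on.

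Of the genes with the strongest early response, promoter sequences from RefSeq are shown first, to let the start regions be seen beside the array values. They are the 5 genes with the largest rises in high-KLF4 that the promoter table covers, and the gene with the largest fall. Each runs from 250 bases before to 50 bases after the start of transcription, 5′ to 3′ on the gene's strand, in build GRCm38.p6. Capitals mark CACCC and its reverse complement GGGTG.
Krt14, chr11:100205981-100206280, minus strand: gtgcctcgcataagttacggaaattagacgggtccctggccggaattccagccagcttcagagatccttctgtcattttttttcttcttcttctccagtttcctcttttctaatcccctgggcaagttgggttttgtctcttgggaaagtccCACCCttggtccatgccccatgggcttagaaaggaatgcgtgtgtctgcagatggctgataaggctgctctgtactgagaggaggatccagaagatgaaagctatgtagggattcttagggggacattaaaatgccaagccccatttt
Mall, chr2:127729848-127730147, minus strand: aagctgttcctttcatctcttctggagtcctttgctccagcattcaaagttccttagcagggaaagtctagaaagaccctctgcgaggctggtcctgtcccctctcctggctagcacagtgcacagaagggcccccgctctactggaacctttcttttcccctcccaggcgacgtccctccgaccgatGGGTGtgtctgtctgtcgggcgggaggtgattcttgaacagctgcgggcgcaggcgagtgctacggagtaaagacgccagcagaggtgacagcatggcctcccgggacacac
Alox12b, chr11:69156822-69157121, plus strand: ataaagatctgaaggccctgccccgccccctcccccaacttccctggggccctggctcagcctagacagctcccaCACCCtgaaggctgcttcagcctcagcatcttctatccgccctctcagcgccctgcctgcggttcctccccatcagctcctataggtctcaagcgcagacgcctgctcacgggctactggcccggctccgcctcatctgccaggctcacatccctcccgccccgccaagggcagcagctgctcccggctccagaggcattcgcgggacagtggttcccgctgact
Ly6g6c, chr17:35067075-35067374, plus strand: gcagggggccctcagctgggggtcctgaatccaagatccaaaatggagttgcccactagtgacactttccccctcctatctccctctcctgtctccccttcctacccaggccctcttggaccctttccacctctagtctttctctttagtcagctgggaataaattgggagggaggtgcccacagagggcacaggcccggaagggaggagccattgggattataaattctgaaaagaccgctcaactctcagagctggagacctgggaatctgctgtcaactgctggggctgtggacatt
Cwh43, chr5:73405828-73406127, plus strand: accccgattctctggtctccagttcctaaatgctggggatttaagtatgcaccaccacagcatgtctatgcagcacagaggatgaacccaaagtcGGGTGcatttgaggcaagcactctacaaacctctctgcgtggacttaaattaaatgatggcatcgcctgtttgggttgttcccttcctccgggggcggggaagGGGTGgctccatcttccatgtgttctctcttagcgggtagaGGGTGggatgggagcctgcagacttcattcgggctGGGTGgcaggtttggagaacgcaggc
Nr0b1, chrX:86191525-86191824, plus strand: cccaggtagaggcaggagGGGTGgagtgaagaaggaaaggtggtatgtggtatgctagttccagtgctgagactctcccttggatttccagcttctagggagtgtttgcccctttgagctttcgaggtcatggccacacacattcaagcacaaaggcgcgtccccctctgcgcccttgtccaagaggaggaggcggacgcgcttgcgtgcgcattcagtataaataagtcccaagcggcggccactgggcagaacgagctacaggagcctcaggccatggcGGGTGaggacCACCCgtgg

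Krt14, Mall and Alox12b held 1 match each, Cwh43 held 4, Ly6g6c held none and Nr0b1, which was lower in high-KLF4, held 3. The letters are common: 18895 of 32851 promoters in the table (57.5%) held at least 1. The longer form CCACACCC, or GGGTGTGG on the other strand, which contains the short one, was in 3.56% of all promoters and, of the 6 shown, in that of Alox12b. A comparison between all called genes and the rest was not made, because coverage by the table was under the share required for it. It covered 360 of 488 genes with a rise (73.8%), 47 of 63 with a fall (74.6%) and 15614 of all 19938 genes (78.3%). A match describes the letters in this window and shows no binding.

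Between the cassettes, 517 of 23410 probes with a gene symbol were higher in high-KLF4 and 68 were lower (limma with day as a block, Benjamini-Hochberg adjusted p under 0.05), which is 2.21% and 0.29% of the probes tested. In the text below, "rose" and "fell" stand for these calls, high-KLF4 against low-KLF4. The shares of 2.21% and 0.29% are the background for every list count below, and a single call in a list speaks for that gene alone. Of the rises, 57 had a mean difference of at least 2 on the log2 scale, 172 lay between 1 and 2, and 288 were under 1. Of the falls, 1 was at least 2 in size, 16 lay between 1 and 2, and 51 were under 1. By fold alone, 187 of 28853 probes passed 2-fold upward in high-KLF4 on both days (0.648%) and 10 passed it downward on both (0.0347%). On day 2 alone the counts were 250 (0.866%) and 17 (0.0589%), and on day 4 alone 401 (1.39%) and 172 (0.596%). The median difference over all tested probes was -0.01.

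With 1 array per cassette and day, the error of this test is how far the day 2 and day 4 differences of a gene lie apart, moderated across probes, so a gene whose difference grew between the days needs a larger mean to pass. A limma fit of all 18 arrays, which borrows the spread of the replicated groups instead, called 184 probes higher (0.786%) and 42 lower (0.179%) for the mean of both days, and 149 and 19 of these were among the 517 and the 68. That count rests on which replicated groups give the spread: it was 933 and 420 without the 4 day 8 arrays, and 0 and 0 by limma without the iPSC, mESC and keratinocyte arrays (513 and 334 at an unadjusted p under 0.05). Single-day calls in that fit were 30 higher (0.128%) and 3 lower (0.0128%) on day 2, and 90 higher (0.384%) and 26 lower (0.111%) on day 4. With 32 added to every signal before log2, the day-block test called 20 rises and no fall, with 2339 and 1465 probes at an unadjusted p under 0.05. Without the day block, limma called 0 and 0, with 1485 and 908. Below, "passed in both fits" marks genes that each fit called, but the result of the 18-array fit is not given for every gene. Cdh1, Krt8, Alox12b, Klk10, Klk14, F11r, Jam2, Itgb4, Lad1, Epcam, Cers3, Cxcl16, Zfp296 and Tubb3 passed in both fits as well. Pkp1, Dsp, Aloxe3 and Cnfn passed in the day-block test alone. In a sorted pool, fewer cells of a type and less RNA per cell cannot be told apart.

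**Figure D1:**
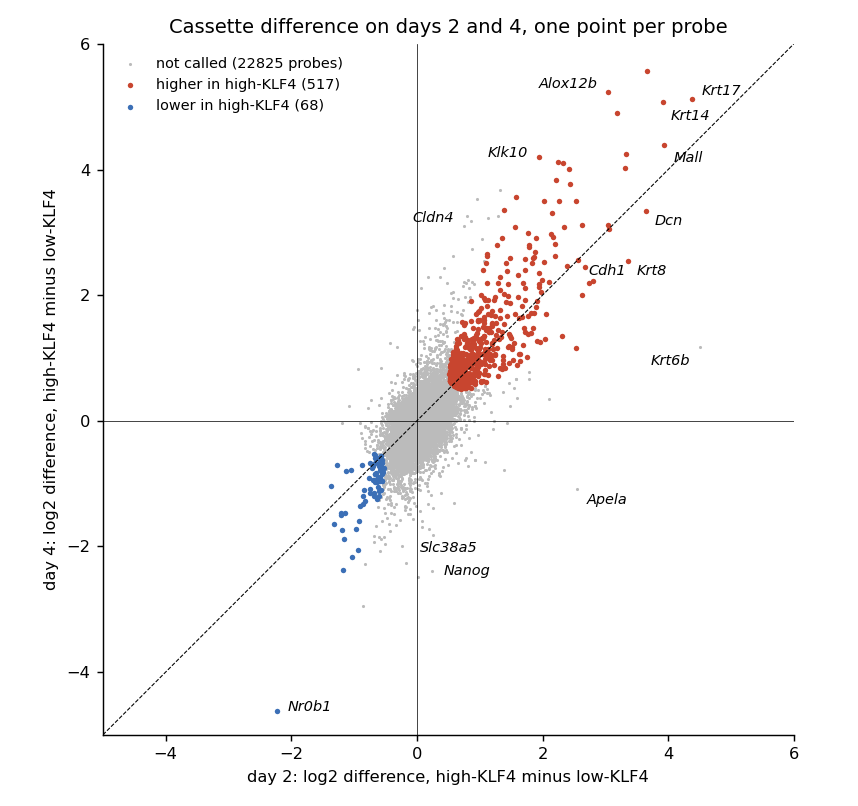
Log2 difference between the cassettes on day 2 (horizontal axis) and on day 4 (vertical axis), high-KLF4 minus low-KLF4, with 1 point for each of the 23410 tested probes and a dashed line where both days are equal. Of the 517 rises 350 and of the 68 falls 55 were larger on day 4, beside 13280 of all 23410 tested probes. Nr0b1 (change -2.38), Klk10 (2.25) and Alox12b (2.19) are among the called genes farther from the line. Krt6b, Apela, Nanog and Slc38a5 lie off the line and were not called by the day-block test.

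The cassette factors themselves did not pass the test. Klf4 signal was 1027 and 763 with low-KLF4 and 819.9 and 658 with high-KLF4 (days 2 and 4), with differences of -0.33 on day 2 and -0.21 on day 4 (adjusted p = 0.266 by limma). Its probe cannot tell the short cDNA from the long one and does not read KLF4 protein, so it does not check the cassettes. Differences were -0.14 and -0.20 for Pou5f1, which encodes Oct4, -0.25 and -0.13 for Myc and -0.31 and -0.62 for Sox2. The probes of all 4 were lower in high-KLF4 on both days, without a call. Sox2 read between 85.0 and 131 on the 4 arrays, while mESC arrays read 5305.5 and 3993. Pou5f1, carried on the same cassette transcript, read between 7872 and 9348 on these 4 arrays. Whether the Sox2 probe reads the cassette was not tested, so the Sox2 signal is not taken as a measure of cassette Sox2. Klf4 read 931 and 1100 on the mESC arrays, and whether the Klf4 probe reads the cassette was not tested either.

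The largest rises were keratins of stratified epithelia, the intermediate filaments of keratinocytes. Krt17 read 90.1 and 174 with low-KLF4 and 1881.5 and 6101 with high-KLF4 on days 2 and 4, a difference of 4.38 on day 2 and 5.13 on day 4 (mean 4.76 ± 0.18 SE, limma adjusted p = 0.000837). Krt16, like Krt17 a keratin of activated epidermis, read 73.6 and 75.1 with low-KLF4 and 935 and 3586.5 with high-KLF4, a difference of 3.67 on day 2 and 5.58 on day 4 (mean 4.62 ± 0.40 SE, limma adjusted p = 0.0071). Krt14, the keratin of the basal layer, read 113 and 128 with low-KLF4 and 1709 and 4319 with high-KLF4, a difference of 3.92 on day 2 and 5.08 on day 4 (mean 4.50 ± 0.26 SE, limma adjusted p = 0.00244). In these 3 genes both high-KLF4 arrays lay above both low-KLF4 arrays, the low-KLF4 arrays read at most 174 beside array medians of 150.9 to 156.4, and the day 4 high-KLF4 array was the highest. Krt6a, which pairs with Krt16 and Krt17, showed the same separation at 65.3 and 64.3 with low-KLF4 and 598 and 1919.5 with high-KLF4, a difference of 3.19 on day 2 and 4.90 on day 4. Krt13, a keratin of internal stratified epithelia, rose by 1.94 on day 2 and 2.18 on day 4. All 5 passed in both fits.

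The rises covered part of the keratin family. Of 19 stratified keratins measured, 5 rose, none fell and the median difference of the list was 0.11. Krt5, the usual partner of Krt14 in basal cells, read 122 and 136 with low-KLF4 and 124 and 155 with high-KLF4, and Krt15, another basal keratin, had differences of 0.16 and 0.02. The keratins of upper layers, Krt1 and Krt10, had differences of 0.07 and 0.31 and of -0.20 and 0.02. Trp63, the transcription factor that defines the basal keratinocyte, read 108 and 104 with low-KLF4 and 109.6 and 106 with high-KLF4. None of these passed, and their signals stayed at or below the highest array median. Krt6b was the largest difference of day 2 at 4.50, but low-KLF4 went from 201.5 on day 2 to 2576 on day 4 while high-KLF4 went from 4564.5 to 5808, which left 1.17 on day 4. Krt6b missed the day-block test (limma adjusted p = 0.111) and passed in the 18-array fit (adjusted p = 0.000571).

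**Figure D2:**
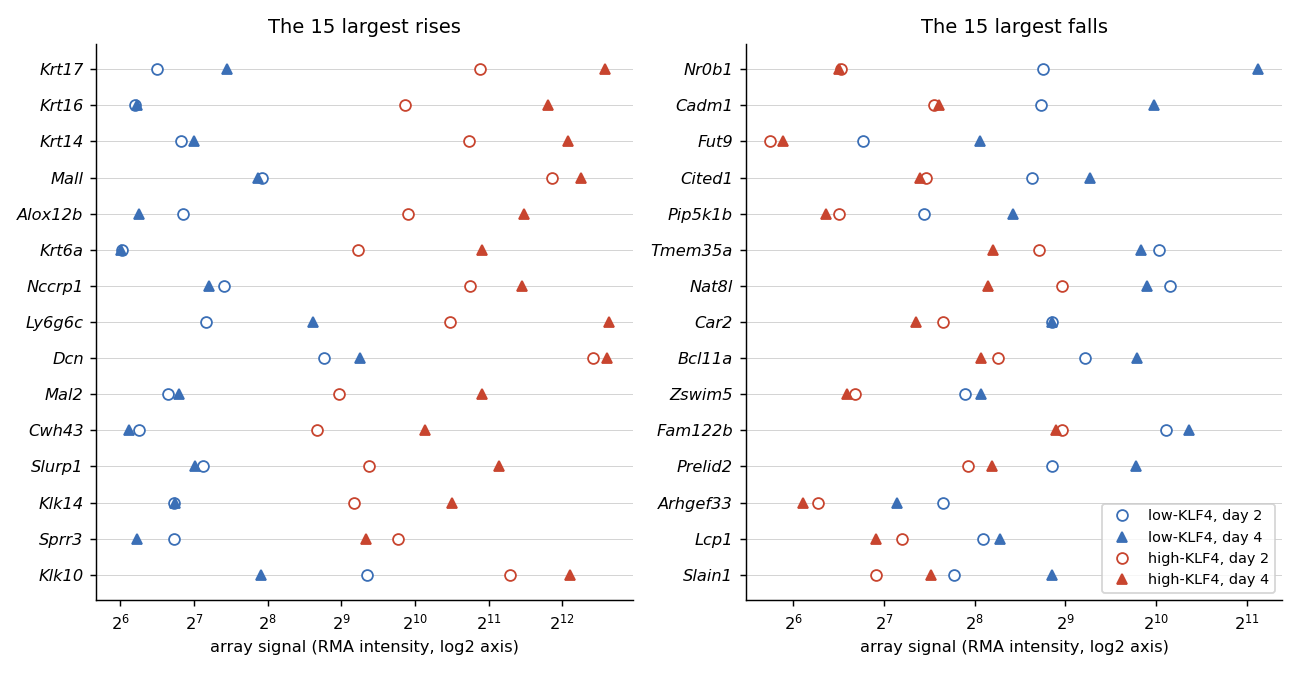
Array signal on a log2 axis of the 15 genes with the largest rises (left) and the 15 with the largest falls (right) in each of the 4 arrays, with open circles for day 2 and filled triangles for day 4. In each of the 30 genes both high-KLF4 arrays lie on the same side of both low-KLF4 arrays. The day 4 difference is the larger one in 14 of 15 rises and 14 of 15 falls, beside 13280 of all 23410 tested probes.

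Keratins of single-layered epithelia were higher as well. Krt8, among the first keratins of embryonic epithelia, read 406 and 1619.8 with low-KLF4 and 4168 and 9479 with high-KLF4, so that it gained signal with either cassette while the difference went from 3.36 to 2.55 (mean 2.95 ± 0.19 SE, limma adjusted p = 0.00322). Krt20, a keratin of gut epithelium, rose by 1.15 and 1.46 on days 2 and 4 at signals no higher than 259.6. Of 5 members 2 rose and all 5 were higher on both days, with a list median of 1.31. Krt19 and Krt18 had their larger difference on day 4: Krt19 differed by 0.57 on day 2 and 2.62 on day 4, and Krt18, which pairs with Krt8, by 0.01 on day 2 and 1.60 on day 4. Neither passed the day-block test, and Krt19 passed in the 18-array fit.

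Secreted and surface proteins of squamous epithelium were among the 15 largest rises too. Ly6g6c, a surface protein of the LY6 family, read 144 and 392 with low-KLF4 and 1427 and 6343 with high-KLF4, a difference of 3.31 on day 2 and 4.02 on day 4. Slurp1, a secreted peptide of the same fold, read 139 and 129.6 with low-KLF4 and 662 and 2253 with high-KLF4, a difference of 2.25 on day 2 and 4.12 on day 4. In both genes the high-KLF4 arrays lay above the low-KLF4 arrays. Nccrp1, an F-box-like protein of squamous epithelium, differed by 3.34 on day 2 and 4.25 on day 4, and Cwh43, which acts on lipid-anchored proteins, by 2.41 on day 2 and 4.01 on day 4. All 4 passed in both fits.

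Several components of the cornified envelope, the protein shell of dead surface keratinocytes, were higher on both days. Sprr3, a small proline-rich envelope precursor, read 106 and 75.0 with low-KLF4 and 871 and 649 with high-KLF4, with differences of 3.04 on day 2 and 3.11 on day 4. Sprr1b, of the same family, differed by 2.35 on day 2 and 3.09 on day 4. Tgm1, the transglutaminase that cross-links the envelope, read 141 and 215 with low-KLF4 and 817 and 2429 with high-KLF4 and differed by 2.54 on day 2 and 3.50 on day 4. These 3 passed in both fits. Of 27 measured members 8 rose and none fell, with a list median of 0.25. Among the others, Cnfn (cornifelin) differed by 1.95 and 2.36 on days 2 and 4, Tgm3 by 1.63 and 1.63, Sprr2b by 1.71 and 1.48, Sbsn by 0.75 and 0.84 and involucrin, Ivl, by 0.58 and 0.88. Loricrin (Lor), the main protein of the mature envelope, had values of 103 and 80.8 with low-KLF4 and 133 and 88.1 with high-KLF4. Scel (sciellin) went from 0.86 on day 2 to 3.19 on day 4 and passed in the 18-array fit alone.

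Enzymes of the epidermal lipid barrier and surface proteases were among the largest rises. Alox12b, the lipoxygenase that starts the oxidation of barrier ceramides, read 116 and 76.1 with low-KLF4 and 959 and 2867 with high-KLF4, with differences of 3.05 on day 2 and 5.24 on day 4 (mean 4.14 ± 0.46 SE, limma adjusted p = 0.0129). Aloxe3, which acts in the next step, differed by 1.07 and 1.66 on days 2 and 4, and Cers3, the synthase of very long ceramides, by 1.11 and 2.63. Of 19 genes in the lipid barrier list, matriptase included, 6 rose and none fell, with a median of 0.18, and the others were Elovl7, a fatty acid elongase (1.46 and 1.19), and Cyp4f39, a fatty acid hydroxylase (1.59 and 0.89). Of 11 kallikreins, the serine proteases that shed surface cells, 2 rose: Klk14, at 106 and 107 with low-KLF4 and 577 and 1458 with high-KLF4, and Klk10, at 649.6 and 239.8 with low-KLF4 and 2497 and 4395 with high-KLF4. Klk14 differed by 2.44 on day 2 and 3.77 on day 4. Klk10 differed by 1.94 on day 2 and 4.20 on day 4, with a lower low-KLF4 signal on day 4 than on day 2. Of 16 serpins and other protease inhibitors 4 rose, with a median of 0.35: Serpinb5 (maspin) by 1.79 on day 2 and 2.80 on day 4, Serpinb1a by 1.31 and 1.30, Serpinb9 by 0.55 and 0.68 and the cystatin Cst6 by 0.58 and 0.83. St14 (matriptase), the protease that activates barrier proteins, rose by 1.02 on day 2 and 2.00 on day 4.

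Junction genes of epithelial cells were called in part. Cdh1, E-cadherin of the adherens junction, read 110.5 and 439 with low-KLF4 and 653 and 2584 with high-KLF4, with differences of 2.56 on day 2 and 2.56 on day 4 (mean 2.56 ± 0.10 SE, limma adjusted p = 0.000837). Both cassettes gained signal in parallel, and each high-KLF4 array lay above both low-KLF4 arrays. Desmosome genes rose as well, Pkp1 (plakophilin) by 1.39 and 1.54 on days 2 and 4, Dsp (desmoplakin) by 1.19 and 0.97 and Jup (plakoglobin) by 0.85 and 1.16. Epcam, an epithelial adhesion molecule, differed by 0.81 on day 2 and 1.29 on day 4. Of 14 members 5 rose and none fell, with a list median of 0.96. Of 19 tight junction genes 2 rose, both of the immunoglobulin-like JAM family, with a median of 0.35: F11r, which encodes JAM-A, differed by 1.72 on day 2 and 2.40 on day 4, and Jam2 by 1.32 on day 2 and 1.76 on day 4. No claudin passed. Cldn4 read 322 and 269 with low-KLF4 and 544 and 2308 with high-KLF4, so that a difference of 0.76 on day 2 became 3.10 on day 4 (limma adjusted p = 0.123). Ocln (occludin) differed by 0.49 and 0.78 and lay just outside the threshold (limma adjusted p = 0.0528).

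Integrins of the basement membrane contact rose early. Itgb4, the integrin chain of hemidesmosomes, read 1034 and 1312 with low-KLF4 and 3636 and 4293 with high-KLF4 and differed by 1.81 on day 2 and 1.71 on day 4. Its partner chain Itga6 differed by 0.72 on day 2 and 1.57 on day 4, while Itgb1, the other partner of Itga6, had differences of 0.13 and 0.37 and did not pass. Lad1 (ladinin), an anchoring filament protein, differed by 1.57 on day 2 and 3.09 on day 4. Of 12 hemidesmosome and laminin genes 3 rose, with a median of 0.60. The laminin-332 chain genes Lama3 and Lamb3 had differences of 0.42 and 1.64 and of 0.47 and 1.60 on days 2 and 4, and neither passed. Nt5e, a surface nucleotidase, rose by 0.94 on day 2 and 1.36 on day 4.

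Mall, Mal2 and Mal rose, which encode related membrane proteins with a known part in sorting cargo to the apical surface. Mall read 242 and 234.5 with low-KLF4 and 3710.0 and 4902 with high-KLF4, so its difference on day 2 was close to that of day 4 (3.94 on day 2 and 4.39 on day 4, mean 4.16 ± 0.13 SE, limma adjusted p = 0.000515). Mal differed by 3.06 on day 2 and 3.05 on day 4, and Mal2 by 2.33 on day 2 and 4.11 on day 4. All 3 passed in both fits, and both high-KLF4 arrays lay above both low-KLF4 arrays. In the list of apical polarity and transport, 7 of 19 genes rose and none fell (median 0.66), and the other 4 were the epithelial splicing factor Esrp2 (1.00 and 1.17 on days 2 and 4), the polarity protein Pard6b (0.67 and 0.56) and the protease inhibitors Spint1 (1.07 and 0.92) and Spint2 (1.07 and 0.74). Esrp1, Rab25 and Ap1m2 differed by 0.30 and 1.77, 0.04 and 1.27 and 0.00 and 1.77 on days 2 and 4, and did not pass.

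**Figure D3:**
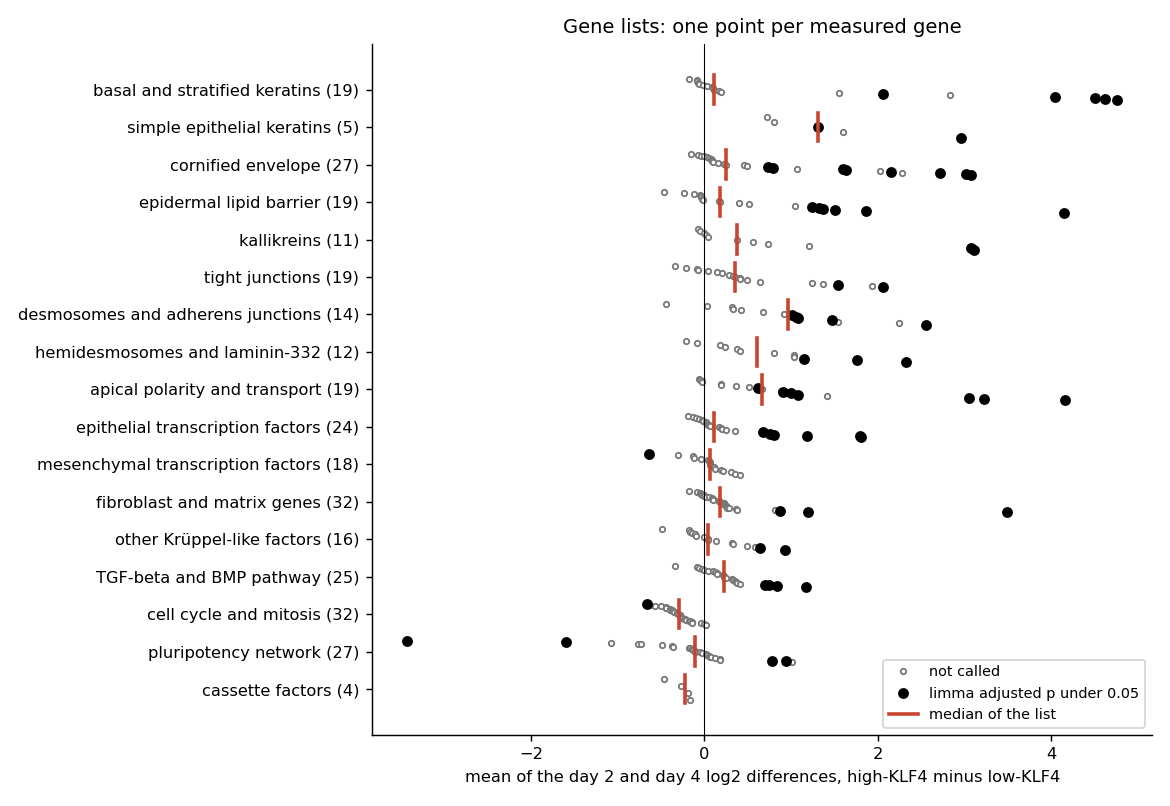
Mean of the day 2 and day 4 log2 differences, high-KLF4 minus low-KLF4, for every measured gene of 17 lists (number measured in brackets), with filled points for genes past the day-block test and a red bar at each list's median. Most filled points lie in the epithelial lists, often as a few genes to the right of a list whose other members sit near 0, while 29 of 32 cell cycle genes were lower on both days.

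Of 24 epithelial transcription factors measured, 6 rose and none fell, with a median of 0.12. Ehf, an ETS factor of epithelia, read 156 and 388 with low-KLF4 and 571 and 1276 with high-KLF4 and differed by 1.87 on day 2 and 1.72 on day 4, and was the one member to pass in both fits. Ovol1, a zinc finger repressor that acts in epidermal differentiation, read 95.0 and 103 with low-KLF4 and 237 and 506 with high-KLF4, a difference of 1.32 on day 2 and 2.29 on day 4 (mean 1.81 ± 0.22 SE, limma adjusted p = 0.0175), and its 18-array adjusted p was 0.0626. Differences were 1.06 and 1.31 on days 2 and 4 for Nfe2l3, 0.69 and 0.91 for Mxd1, a MYC antagonist, 0.83 and 0.68 for Grhl3, a barrier regulator, and 0.59 and 0.76 for Tead4. Elf5 differed by 0.01 and 0.40, Grhl2 by 0.05 and 0.45 and Ovol2 by 0.24 and -0.14, and none of the 3 passed. Among 16 other Krüppel-like factors 2 rose: Klf10, by 0.93 and 0.92, and Klf8, by 0.77 and 0.51. Klf5, which shares many sites with KLF4, had differences of -0.37 and -0.62 and was not called.

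Fibroblast genes held 1 of the largest rises, Dcn. Of 32 fibroblast and matrix genes, 3 rose (Dcn, Lum and the collagen VI chain Col6a1, 0.99 and 0.76), none fell, beside 2.21% and 0.29% of all tested probes, and 21 were higher on both days, with a median of 0.18. With so few falls among all probes, a count of 0 falls in 32 genes says nothing particular to them. Col1a1 differed by 0.25 and 0.27 on days 2 and 4, Vim (vimentin) by -0.01 and 0.05, and Thy1 by 0.20 and 0.31. Of 18 mesenchymal transcription factors 1 fell (5.56%, beside 0.29%), the homeobox gene Meox2 (-0.52 and -0.75), and the median was 0.07. The repressors of E-cadherin had differences of 0.11 and 0.13 for Zeb1, 0.07 and 0.16 for Zeb2, 0.03 and 0.07 for Snai1 and -0.12 and -0.12 for Snai2. The summed signal of 14 fibroblast markers was 29671 and 32684 with low-KLF4 and 37209 and 42469 with high-KLF4 (days 2 and 4). Dcn, called from these arrays, is in that sum, at 437 and 612 with low-KLF4 and 5461 and 6211 with high-KLF4. On every array 12 to 13 of the 14 lay above the array median. The summed signal of 8 keratinocyte markers was 1916 and 2363 with low-KLF4 and 6567 and 10751 with high-KLF4. Of these genes Krt14, Itgb4 and Pkp1 rose, and on the day 4 high-KLF4 array they read 4319, 4293 and 1168. The higher sums with high-KLF4 rest in large part on called genes and do not show a shift of every marker. Immune, endothelial, neural, muscle and trophoblast marker sums lay between 665 and 3802 on every array and were higher with high-KLF4 on both days, and their part in the results was not tested.

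The largest rise among the fibroblast genes was Dcn, decorin, a small leucine-rich proteoglycan that binds collagen. Dcn read 437 and 612 with low-KLF4 and 5461 and 6211 with high-KLF4, a difference of 3.64 on day 2 and 3.34 on day 4 (mean 3.49 ± 0.12 SE, limma adjusted p = 0.000515), and it passed in both fits. Keratinocytes read 85.6 and 97.2 and mESC 130.1 and 111, so neither outside cell type had the level of the high-KLF4 arrays. Low-KLF4 cells read more Dcn later, at 3216 and 1112 on day 8 and 3245 on day 18. High-KLF4 cells read 5407 and 4232 on day 8 and 4514 on day 18. The family was then looked at after these values were seen. Prelp, a relative of Dcn, rose by 2.80 on day 2 and 2.23 on day 4, at 288 and 696 with low-KLF4 and 2009 and 3273 with high-KLF4, and passed in both fits, and Lum (lumican) rose by 1.47 and 0.92 in the day-block test alone. Bgn (biglycan), Ogn, Aspn, Podn and Fmod differed by -0.08 and 0.03, 0.03 and 0.02, 0.42 and -0.11, -0.02 and -0.18 and 0.72 and 0.39, and none passed.

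Signalling lists held a few calls each. Of 10 EGF receptor ligands and receptors 2 rose (20%, beside 2.21% of all tested probes), with a median of 0.38: Erbb3 rose by 1.42 on day 2 and 2.51 on day 4 and the ligand Ereg by 0.56 and 0.61, while Egfr differed by -0.33 and -0.40 and was not called. In the TGF-beta and BMP pathway 4 of 25 rose (16%), with a median of 0.23: the targets Id1 (0.95 and 1.39) and Id2 (0.80 and 0.68), the ligand Bmp2 (0.77 and 0.91) and the receptor Tgfbr2 (0.69 and 0.72). None of the 6 passed in the 18-array fit. Of 26 cytokines and inflammatory mediators 1 rose (3.85%, near the 2.21% of all tested probes), Cxcl16 (1.10 on day 2 and 2.51 on day 4). Of 12 FGF genes, 25 interferon response genes, 16 smooth muscle genes and 14 immune markers, none was called by the day-block test, which at 2.21% of all probes is near the background for lists of this size. Of the immune markers, Srgn, a proteoglycan core protein of secretory granules, read 96.7 and 77.2 with low-KLF4 and 241 and 987 with high-KLF4, with differences of 1.32 on day 2 and 3.68 on day 4, and passed in the 18-array fit alone (limma adjusted p = 0.0227, and 0.0666 in the day-block test).

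Cell cycle genes lay lower in high-KLF4 by small amounts. Of 32 genes of replication and mitosis, 29 were lower on both days, as were 7359 of all 23410 tested probes. The list had a median of -0.19 on day 2 and -0.45 on day 4, against 0.02 and -0.03 for all tested probes. Aurkb, a mitotic kinase, differed by -0.44 and -0.89, Mcm7, a helicase subunit, by -0.31 and -0.83 and Mki67 by -0.35 and -0.66, and these 3 did not pass. One member fell: Cdt1, which licenses replication origins, at 1489 and 1681 with low-KLF4 and 992 and 1008 with high-KLF4 and differences of -0.59 on day 2 and -0.74 on day 4. Genes outside the list, named after their values were seen, were the linker histone H1f1 (-0.74 and -0.67), the histone H2ac4 (-0.65 and -0.83), the replication fork protein Tipin (-0.57 and -0.56) and 1 of the 2 probes of Tk1, thymidine kinase (-0.56 and -0.84). These fell in the day-block test and not in the 18-array fit. In the p53 list, Btg2 was the 1 call among 20 (5%, beside 2.21% of all tested probes), a rise of 0.59 and 0.78.

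The falls were fewer, and the largest was in a gene of the pluripotent state. Nr0b1 (Dax1), a nuclear receptor of embryonic stem cells, read 432 and 2233 with low-KLF4 and 91.8 and 91.0 with high-KLF4, a difference of -2.23 on day 2 and -4.62 on day 4 (mean -3.43 ± 0.50 SE, limma adjusted p = 0.0293, and 3.32e-05 in the 18-array fit). High-KLF4 cells stayed near 91.8 on both days, while low-KLF4 cells reached 2233, below the 5555 and 5664 of mESC. Fut9, the fucosyltransferase that makes the SSEA-1 antigen, read 109 and 265.5 with low-KLF4 and 53.5 and 58.9 with high-KLF4, a difference of -1.03 on day 2 and -2.17 on day 4 (mean -1.60 ± 0.25 SE, limma adjusted p = 0.0374). Fut9 did not pass in the 18-array fit (adjusted p = 0.101). Cadm1, a cell adhesion molecule, fell by the same course at 423.5 and 1011 with low-KLF4 and 187 and 194 with high-KLF4, and passed in both fits. In these 3 genes the low-KLF4 signal was higher on day 4 than on day 2 and the high-KLF4 signal hardly moved.

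In other falls the difference grew less between the days. Tmem35a, a transmembrane protein, read 1051 and 915 with low-KLF4 and 419.8 and 294 with high-KLF4, with differences of -1.32 and -1.64 on days 2 and 4. Nat8l, which makes N-acetylaspartate, differed by -1.19 and -1.74, Car2, carbonic anhydrase 2, by -1.21 and -1.50, and Cited1, a transcriptional coregulator, by -1.17 and -1.88. Bcl11a, a zinc finger repressor, differed by -0.97 and -1.72, and Arhgef33 was the single gene of the 15 whose fall was larger on day 2 (-1.37 and -1.04). All 6 passed in both fits. The rest of the 15 largest falls were Zswim5 (-1.21 and -1.47 on days 2 and 4), Lcp1, an actin-bundling protein (-0.90 and -1.36), Pip5k1b, a lipid kinase (-0.94 and -2.06), Fam122b (-1.15 and -1.47), Prelid2 (-0.93 and -1.59) and Slain1 (-0.86 and -1.33). Of these 6, Zswim5 and Lcp1 passed in both fits. Chd7, a chromatin remodeller, has 30 probes on this array: all 30 were lower in high-KLF4 on both days, with medians of -0.46 on day 2 and -0.87 on day 4, 6 fell and none passed in the 18-array fit. These probes read 1 gene and are not replicates.

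Of 27 pluripotency genes 2 rose and 2 fell (7.41% each, beside 2.21% and 0.29% of all tested probes), and the median was -0.11. Besides Nr0b1 and Fut9, the rises were Tet2, which oxidises methylcytosine (0.95 and 0.93), and Zfp296 (0.93 and 0.63). Some members were at low signal on all 4 arrays: Esrrb read between 93.0 and 109, Zfp42 between 50.4 and 63.2, and Dppa5a between 60.6 and 79.0. With no detection call in the file, whether such signals differ from background is not known. The summed signal of the 27 genes was 5749 and 12030 with low-KLF4 and 6394 and 7585 with high-KLF4 on days 2 and 4. For 8 pluripotent markers, Nr0b1 and Nanog among them, the sums were 1134 and 4366 with low-KLF4 and 857 and 1098 with high-KLF4. One of these, Fgf4, read 159 and 541 with low-KLF4 and 180 and 285 with high-KLF4, without a call.

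A test of the day 4 difference against the day 2 difference, in the 18-array fit, called 3 probes lower (0.0128%) and none higher, with 371 and 198 at an unadjusted p under 0.05. In all 3 genes the low-KLF4 signal gained more between the days than the high-KLF4 signal. Nanog, the core factor of naive pluripotency, read 79.5 and 992 with low-KLF4 and 94.2 and 188 with high-KLF4: its difference went from 0.24 to -2.40, a change of -2.64 ± 0.20 SE (limma adjusted p = 0.018). Slc38a5, an amino acid transporter, read 95.8 and 434 with low-KLF4 and 84.6 and 90.0 with high-KLF4 and changed by -2.09 ± 0.19 SE (limma adjusted p = 0.0258). Apela, a peptide ligand of the apelin receptor expressed in embryonic stem cells, read 93.8 and 2116 with low-KLF4 and 550.5 and 994.5 with high-KLF4, and its difference turned from 2.55 to -1.09, a change of -3.64 ± 0.32 SE (limma adjusted p = 0.0258). Of other genes that were lower on day 4, Pllp differed by -0.86 on day 2 and -2.95 on day 4 and Sv2b by 0.02 on day 2 and -2.49 on day 4. Alpl, alkaline phosphatase, a stem cell marker, read 314 and 2059 with low-KLF4 and 358 and 622 with high-KLF4 and differed by 0.19 on day 2 and -1.73 on day 4, without a call. Without the 4 day 8 arrays, the same test called 32 higher and 26 lower.

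**Figure D4:**
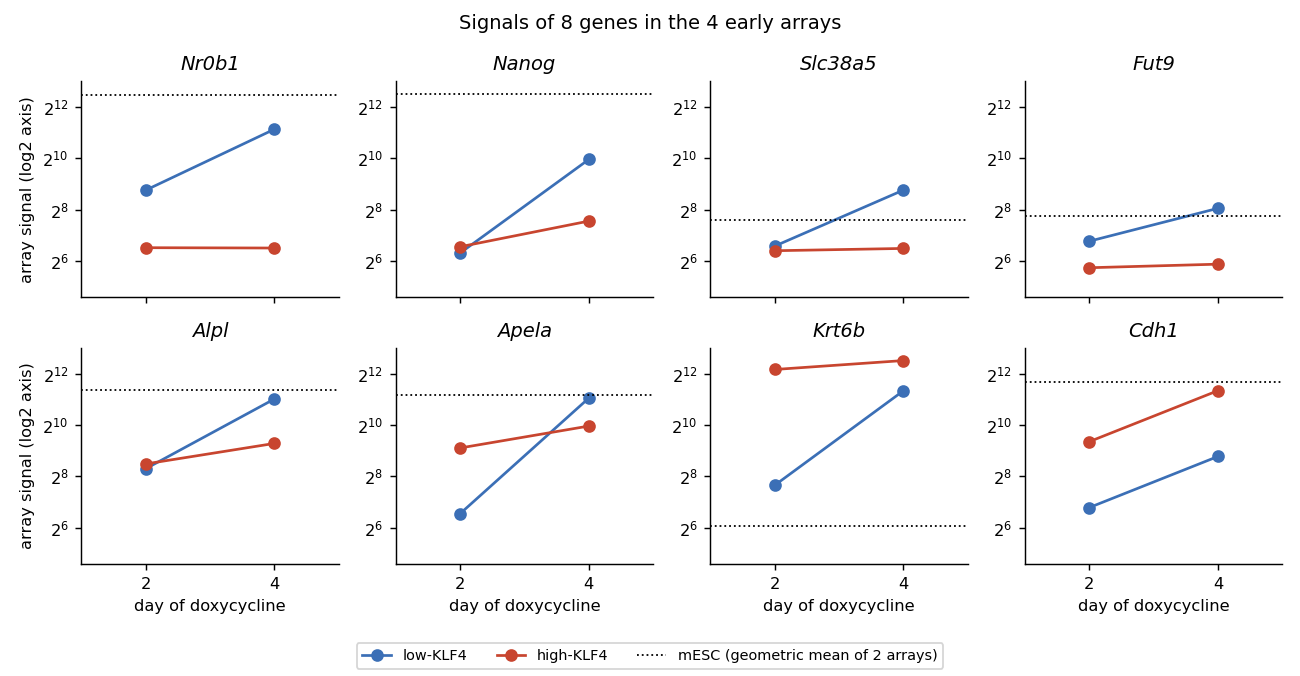
Array signal (log2 axis) on day 2 and day 4 for 8 genes, with 1 point per array, low-KLF4 in blue, high-KLF4 in red and the geometric mean of the 2 mESC arrays as a dotted line. Low-KLF4 signals of Nr0b1, Nanog, Slc38a5, Fut9, Alpl, Apela and Krt6b went up from day 2 to day 4 while high-KLF4 signals moved less, and the lines of Cdh1 run in parallel.

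Movement within each cassette can be read from the same arrays. Of the 517 rises, 41 (7.93%) went up at least 2-fold from day 2 to day 4 in high-KLF4 and 30 (5.8%) did so in low-KLF4, against 0.696% and 0.871% of all tested probes. Of the 68 falls, 8 (11.8%) went up at least 2-fold in low-KLF4 and 1 (1.47%) in high-KLF4. Since the calls use these arrays, the counts are a description.

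The arrays of day 8 and day 18 were not used for the calls and carry the same contrast. On day 8, 511 of the 517 rises were higher in high-KLF4 (98.8%, against 43.8% of all tested probes), at a median of 1.11, and 285 were at least 2-fold higher. All 68 falls, 6 of them probes of Chd7, were lower on day 8, against 13164 of all 23410 tested probes, at a median of -0.63. On day 18, with 1 array per cassette, 380 of the rises were higher (73.5%, against 43.2%), at a median of 0.23, with 62 at least 2-fold. Of all 23410 tested probes, 743 on day 8 and 179 on day 18 were at least 2-fold apart on the side of their early mean difference. Of the 68 falls 36 were lower on day 18, against 13253 of all 23410 tested probes. Their median of -0.04 was that of all tested probes (-0.04), so the falls as a set were near the background by then. Each of the 15 largest rises was at least 2-fold higher on day 8, and 12 were on day 18; Dcn, Slurp1 and Sprr3 stood at 0.48, 0.52 and -0.13 by then. Of the 15 largest falls 8 were at least 2-fold lower on day 8 and none on day 18.

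**Figure D5:**
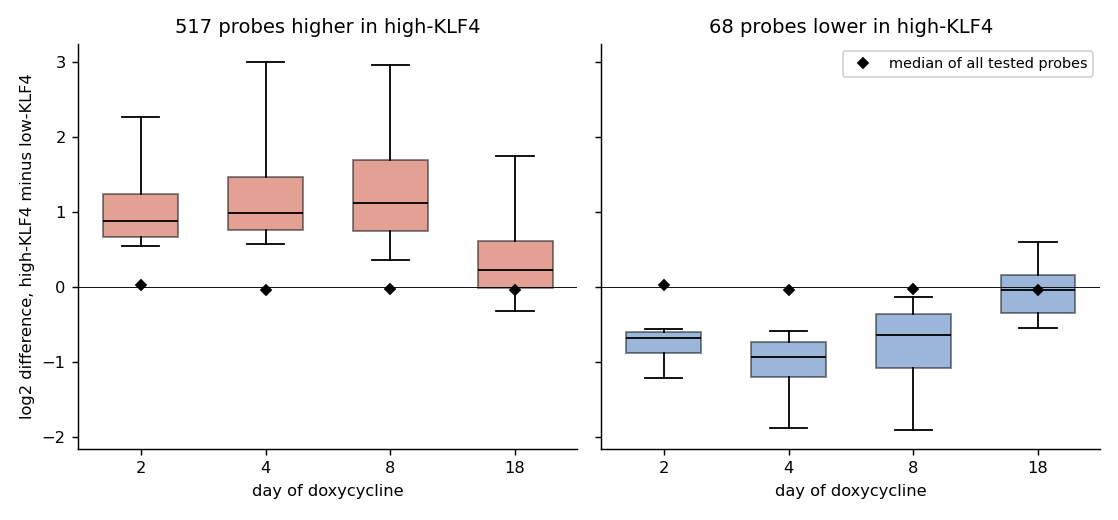
High-KLF4 minus low-KLF4 (log2) on days 2, 4, 8 and 18 for the 517 rises (left) and the 68 falls (right) called from days 2 and 4, with boxes from the 25th to the 75th percentile, whiskers from the 5th to the 95th, and diamonds at the median of all tested probes. Both medians keep their side on day 8, at 1.11 and -0.63, and on day 18 their medians are 0.23 and -0.04.

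Outside cell types place the called genes. Of the 517 rises, 299 read higher on both keratinocyte arrays than on both mESC arrays (57.8%, against 34.9% of all tested probes). The reverse held for 155 (30%, against 36%). Of the 68 falls, 49 read higher in mESC than in keratinocytes (72.1%, against 36%). These are shares of probes: the 68 falls stand for 63 genes, and 6 of them are probes of Chd7. By level, some early rises had passed the keratinocyte on day 4: Alox12b read 2867 with high-KLF4 against 319 and 261.5 in keratinocytes, Slurp1, a secreted epidermal peptide, 2253 against 111 and 120.5, and Klk14 1458 against 138 and 151. Others were still below: Krt14 read 4319 against 10143.5 and 9677, and Krt6a 1919.5 against 8253 and 7001. No test was run on these levels, which set single arrays beside other cultures.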

How the data were processed

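The deposited values are signal intensities that the authors made with RMA, a method that removes background, brings all arrays to 1 distribution of values and then combines the probes of a gene. Values were checked to be on a linear scale (20.2 to 19538.7; array medians 139.4 to 161.6), and carry no detection call. Log2 was taken of each. The arrays are Affymetrix Mouse Gene 1.0 ST arrays.

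Of 28853 probes, 23410 with a gene symbol were tested, 21789 of them with 1 symbol. Names came from the platform annotation, with 21698 matched to RefSeq by gene ID; where a gene had several probes, the brightest stood for it in a list. The main test was limma 3.58.1 (R 4.3.3) on the 4 arrays of days 2 and 4 with day as a block: 1 residual and 5.01 prior degrees of freedom. The 18-array fit, with 12 groups, had 6 and 2.25. Benjamini-Hochberg adjustment ran over all tested probes at 0.05. The labels do not say that arrays came from separate cultures. The day-block p-values measure how far the day 2 and day 4 differences lie apart, and those of the 18-array fit use the spread of the replicated groups. Neither measures the spread between cultures of 1 cassette on day 2 or on day 4. The number of arrays limits the precision.

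The members and the 29 gene lists (500 genes measured) were chosen with earlier results of these data known. Named were the 15 largest rises and falls with the same sign on both days, the 5 largest differences each way on either day, up to 4 calls each way per list, the cassette factors, genes the study names for its arrays, and the largest changes between days. Other genes were chosen after their values were seen. Some genes are not reported here.

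Simulated data had 23410 probes, 100 changed by 1 and 100 by 2 on the log2 scale. With a spread drawn from the prior that limma fitted to the 4 arrays, the day-block test found 96 and 100 and called 28 unchanged probes. With the spread of the replicated groups it found 0 and 0. The simulated data follow the model of the test and hold no change of the cassette difference between days. They therefore do not check the calls made on the real arrays. The 18-array fit found 71 and 90 and called 11. Promoters came from RefSeq (GRCm38.p6). Python 3.11.15, pandas 2.3.3 and matplotlib 3.10.9 served for counting and plotting. Alternatives tried were a test without the dimmest 30% of probes, quantile normalization applied again, an offset of 32, limma-trend, robust eBayes, all probes adjusted together, no day block, other sets of arrays, and 1.5-fold and 3-fold thresholds.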

Additional observations from a re-analysis of the deposited data

Results flagged for a closer look

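The cassette difference of 3 genes changed from day 2 to day 4 by the test of the difference itself in the 18-array limma fit. The change, day 4 difference minus day 2 difference, was -2.64 for Nanog (adjusted p = 0.018), -3.64 for Apela (adjusted p = 0.0258) and -2.09 for Slc38a5 (adjusted p = 0.0258). Apela also had opposite signs on the days, 2.55 on day 2 and -1.09 on day 4, with 1 array per cassette on each day. In the same fit the day 2 difference passed on its own (adjusted p = 0.0057) and the day 4 difference did not (adjusted p = 0.125), so the sign on day 4 is not called.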

How the results depend on the processing

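The day-block test gave 517 higher and 68 lower probes. Counts were 926 and 306 with limma-trend, 339 and 31 with all probes adjusted together, 184 and 42 in the 18-array fit, and 20 and 0 with an offset of 32 (2339 and 1465 at an unadjusted p under 0.05). With no replicate block, that is without the pairing by day, limma called 0 and 0, with 1485 and 908 at an unadjusted p under 0.05. Leaving out day 2 or day 4, which needs the 18-array fit, gave 30 to 90 higher and 3 to 26 lower. Filtering dim probes, a second quantile normalization and robust eBayes kept both counts within 1.5 times. Calls of single genes were less stable than the counts. With robust eBayes, limma adjusted p was 0.126 for Krt16, 0.129 for Krt6a, 0.166 for Alox12b and 0.174 for Mal2, which missed the threshold. Krt17 (0.00217) and Krt14 (0.0273) still passed.

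For the mean of both days in the 18-array fit (184 and 42), leaving out the 4 day 8 arrays gave 933 and 420, and leaving out the iPSC, mESC and keratinocyte arrays gave 0 and 0 (513 and 334 at an unadjusted p under 0.05). Leaving out 1 array or 1 day at a time gave 30 to 399 higher and 3 to 96 lower. Without 1 of the high-KLF4 day 8 arrays, whichever it was, the counts were 399 and 65, without 1 low-KLF4 day 8 array 301 and 96, without 1 high-KLF4 iPSC clone 120 and 22, and without 1 low-KLF4 clone 125 and 23. Without the day 8 arrays, day 2 gave 291 higher and 32 lower, day 4 gave 619 and 373, and the change between days 32 and 26. The 3 falls of day 2 became 1 with the dim filter and 5 with the second normalization or the offset. Of the named genes, Nanog differed by 0.24 without day 4 and by -2.40 without day 2, and Apela by 2.55 and -1.09, so that each changed sign with the day left out. The cause of these shifts was not tested.

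With a threshold of 1.5-fold, day 2 had 742 probes up and 162 down, day 4 had 1011 up and 829 down, and 492 and 68 passed on both days. With 3-fold, day 2 had 94 up and 1 down, day 4 had 168 up and 36 down, and 68 and 1 passed on both.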

Other observations

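Some early rises fit none of the lists and were chosen after their values were seen. Upk1b, a uroplakin of bladder epithelium, read 123 and 96.0 with low-KLF4 and 821 and 438 with high-KLF4 on days 2 and 4, with differences of 2.74 on day 2 and 2.19 on day 4. Wnt7a, a secreted WNT ligand, read 90.6 and 76.3 with low-KLF4 and 417 and 470.1 with high-KLF4 and differed by 2.20 on day 2 and 2.62 on day 4. Both high-KLF4 arrays lay above both low-KLF4 arrays in each gene. Aqp3, the water and glycerol channel of the epidermis, differed by 2.67 on day 2 and 2.45 on day 4, and Sfn, which encodes the epithelial 14-3-3 sigma protein, was higher by over 2 on both days at both of its probes. All 4 genes rose in the day-block test and passed in the 18-array fit.

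Among markers of other lineages, Tubb3, a neuronal tubulin, rose by 1.01 and 1.60 on days 2 and 4, Pparg, a regulator of adipocytes, by 1.18 and 1.03, and Flt1, an endothelial receptor, by 1.29 and 0.72. Each was the 1 call of its list in the day-block test (12.5%, 9.09% and 10% of the lists, beside 2.21% of all tested probes). Of 8 neural and glial markers 4 were higher and 2 lower on both days (median 0.05), of 11 muscle and adipocyte markers 2 were higher and 6 lower (median -0.05), and of 10 endothelial markers 5 were higher and 1 lower (median 0.11). The part of such cells in the results was not tested.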
